A study of Mus musculus with 6 samples.

Results

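The genes described here encode the transcription factor NRF2 (Nfe2l2), its inhibitor KEAP1, the antioxidant and detoxifying enzymes that NRF2 is known to control, and enzymes of the pentose phosphate pathway. The list holds 38 genes chosen by function, with earlier results of these data known. Of them, 33 had a feature of their own on the arrays, out of 22180 genes so measured. Where a gene had several such features, the brightest was used. Prdx1 and Tkt lay only on features that also carry another gene's symbol, and Prdx5, Prdx6 and G6pdx were not analysed here. RNA came from J774A.1 cells, a mouse macrophage-like tumour line of BALB/c origin, grown in RPMI-1640 with 10% fetal calf serum. The control group held 3 cultures given phosphate-buffered saline (PBS) for 18 h, and the NPFF group held 3 cultures given neuropeptide FF, an amidated peptide that acts on G-protein-coupled receptors, at 1 nM in PBS for the same 18 h. The labels call the arrays of a group biological replicates without naming separate days or passages, so the spread behind the p-values is that between these 6 cultures of 1 cell line and may be technical.

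NRF2 is made continuously and is normally degraded, because KEAP1 holds it for a ubiquitin ligase. Oxidants and electrophiles modify cysteines of KEAP1, and the NRF2 that escapes pairs with small MAF proteins on antioxidant response elements near genes for glutathione synthesis, the thioredoxin system and conjugating enzymes. The pentose phosphate pathway supplies the NADPH on which glutathione and thioredoxin reductases run. In macrophages the same NADPH also feeds the oxidase that makes superoxide, so these genes bear on how a phagocyte survives its own oxidants.

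The core of the antioxidant response element, TGACNNNGC, was looked for on both strands of the RefSeq promoter windows (build GRCm38.p6, 250 bases before to 50 after an annotated start). Windows were listed for 30 of the 33 measured genes, and 7 of those 30, or 23.3%, held the core, against 14.9% of all measured genes with a window. Counted by window, since a gene can have several, the shares were 17.5% of the 40 windows of these genes and 13.1% of the 20611 windows of all measured genes. A match of this kind is only a run of letters and can also overlap an AP-1 motif, although none of the 7 sites holds TGACTCA. The sites are shown because they name the genes whose promoter window carries the letters that NRF2 is known to read. Each is printed 5′ to 3′ on the strand that spells the core, which is in capitals, in a stretch of 30 bases.
Gclm: ctcgtgagagtTGACGGTGCgcccgggagc
Nfe2l2: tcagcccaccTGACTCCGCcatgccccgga
Txnrd1: ccgtgtcagaaTGACAAAGCaaaaatccag
Mgst1: accccgcctccTGACCGTGCcaagccccgc
Sod1: aggcctgagtcTGACCACGCccaccttggc
Srxn1: gtgtctcactcTGACCTAGCtgcccactgc
Pgd: atttcagagcTGACATTGCactgatcggac
The 30 bases printed for Gclm lie at chr3:122245413-122245442 on the minus strand, with the core from -134 to -126 relative to the start. For the other sites too, coordinates are those of the 30 printed bases, and positions relative to the start are those of the core. The Nfe2l2 site is at chr2:75704884-75704913 (minus strand, -240 to -232) and the Txnrd1 site at chr10:82859104-82859133 (minus strand, -92 to -84). Mgst1 has its site at chr6:138140461-138140490 and Sod1 at chr16:90220696-90220725, both on the minus strand and both from -56 to -48. In Srxn1 (chr2:152105542-152105571, minus strand) and Pgd (chr4:149166060-149166089, minus strand) the core lies just past the start, within the first transcribed bases.

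Values below are quantile-normalized log2 intensities, and differences are NPFF minus control on the same log2 scale. By limma over all 22180 genes, 0 of the 33 genes passed an adjusted p under 0.05, and 0% of all genes did. At an unadjusted p under 0.05 there was 1 of the 33, Blvrb, against 2.51% of all genes, of which 0.834% were higher and 1.67% lower in NPFF. The groups did not overlap in 4 of the 33 genes, Blvrb, Txnrd1, Mgst1 and Pgd, against 8.58% of all genes. On the NPFF side these were 1 higher and 3 lower, where 3.67% and 4.92% of all genes did so. The arrays did not show a change of the pathway after NPFF at these thresholds, but they limit it only so far: the 95% interval of the difference lay within 0.5 log2 of 0 for 24 genes and within 1 for 32, the exception being Pgd. These counts depended on the arrays used: without control 1, 3 genes reached the unadjusted level (Blvrb, Gss and Taldo1, all lower), where 10.8% of all genes did. Without control 3 there were also 3 (Blvrb and Gclm lower, Prdx3 higher), against 4.22% of all genes. Without control 2, NPFF 2 or NPFF 3 there were 0, against 2.97%, 1.21% and 1.37% of all genes.

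Control 1 stood apart from the other arrays. Over all genes, its SD from the mean of the other arrays was 0.37, against 0.11 to 0.21 for the other five, and the 10 measured mitochondrially encoded transcripts averaged 13.22 in control 1 and 12.88 to 13.03 elsewhere. All 10 macrophage markers tested (among them Adgre1, Csf1r, Cd68 and Lyz2) lay above the median signal of all genes, and their mean level was 10.31 in control 1, 10.60 and 10.65 in controls 2 and 3, and 10.55 to 10.65 in the NPFF arrays. Markers of other cells were mostly dim. Above the median signal were 3 of 6 fibroblast markers (Col1a1, Col1a2 and Col3a1) and 1 of 5 epithelial markers (Krt8). So were 1 of 5 lymphocyte, 0 of 5 neutrophil and 2 of 4 hepatocyte markers. The highest of all these, Krt8, lay at the 62.7th percentile. The dimmest epithelial and fibroblast markers, Epcam and Lum, lay at the 10.8th and 10.5th. The range of each such list's mean overlapped between groups, with 6.01 to 6.13 in control and 6.09 to 6.17 in NPFF for fibroblast markers. What part these values have in the differences below was not tested.

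**Figure D1:**
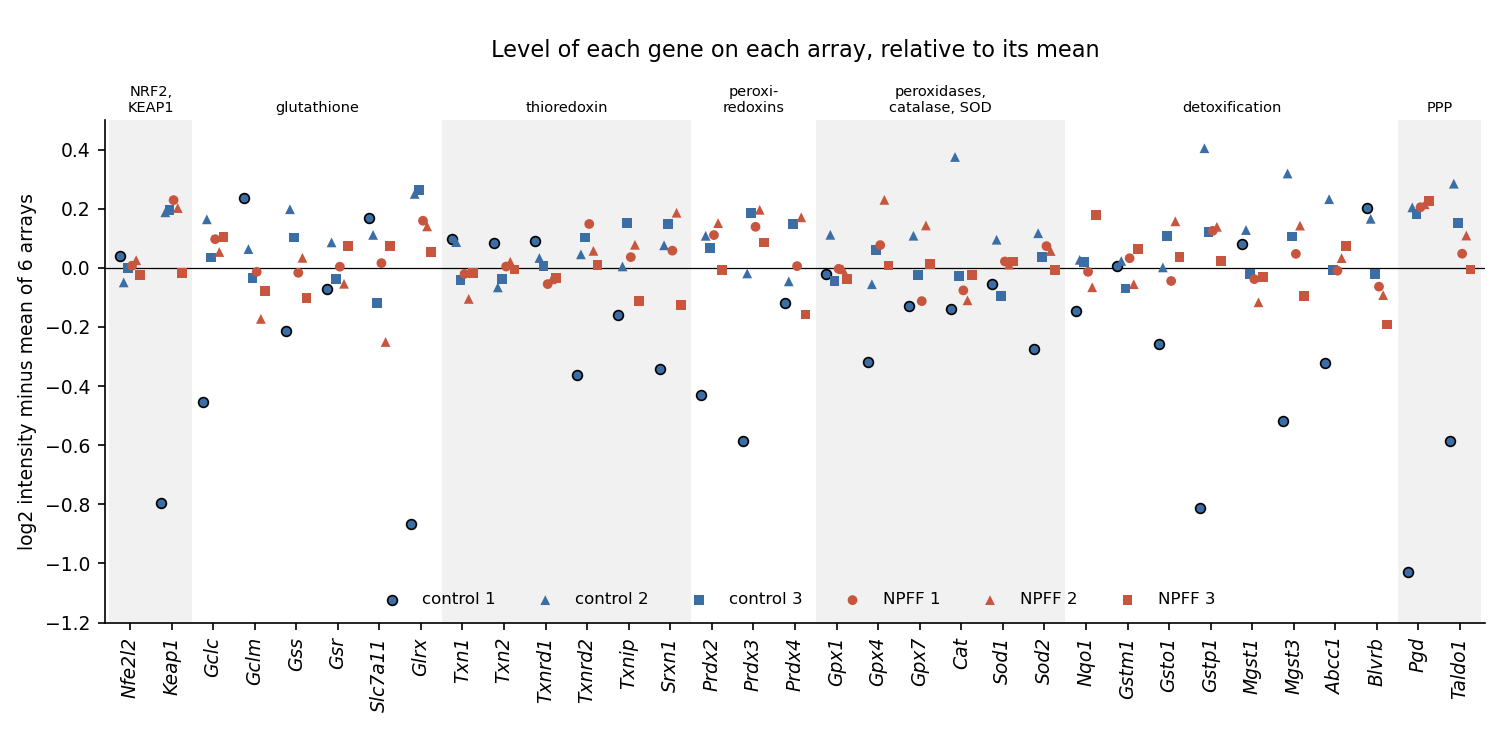
Log2 intensity of each of the 33 genes on each of the 6 arrays, minus that gene's mean over the 6 arrays, in the order of their roles (PPP, pentose phosphate pathway). Blue symbols are control and red symbols NPFF arrays. Control 1, outlined in black, is the lowest array for 21 of the 33 genes, down to Pgd, and the highest for 7. Over all 22180 genes it is the lowest for 10850 and the highest for 5342. The other 5 arrays lie within 0.485 of each other for each of the 33 genes.

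As a group, 24 of the 33 genes were higher in NPFF and 9 lower, against 51.7% of all genes higher. The median difference was 0.04, and it was 0.0037 over all genes. The count pools enzymes with the inhibitors Keap1 (0.27) and Txnip (0.0016), so it does not measure the activity of the pathway. Without Txnip, 23 of 32 genes were higher. The tilt was not present against each control array. Set against control 1 the mean of the NPFF arrays was higher for 25 genes with a median of 0.18, against control 2 for 9 genes with a median of -0.08, and against control 3 for 15 genes with a median of -0.02. Over all genes the shares were 62.6%, 35.8% and 48%, with medians of 0.07, -0.04 and -0.0044. Without control 1 the count turned to 8 higher and 25 lower, with a median of -0.05, and 39.1% of all genes were then higher. The signs against the 3 controls were the same for 8 of the 33 genes, 3 higher and 5 lower, where 25% of all genes had 1 sign throughout. Leaving out 1 array turned the sign of the difference in 24 of the 33 genes, and in 16 of them control 1 was such an array.

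The 3 NPFF arrays were close to one another on these genes. NPFF 1, 2 and 3 were above the control mean for 23, 22 and 20 of the 33 genes, with median differences of 0.02, 0.08 and 0.03. Taken pair by pair, each NPFF array exceeded control 1 in 23 to 25 genes, control 2 in 8 to 13 and control 3 in 13 to 19. The SD over arrays was larger in control than in NPFF for 28 of the 33 genes, and for 17832 of all 22180 genes. Its medians over the 33 genes were 0.19 in control and 0.06 in NPFF, and over all genes 0.14 and 0.07. With control 1 left out, the range of a gene over the remaining 5 arrays had a median of 0.24, compared with 0.41 over all 6. A range can only shrink when an array is left out, and over all genes the medians were 0.20 and 0.32.

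**Figure D2:**
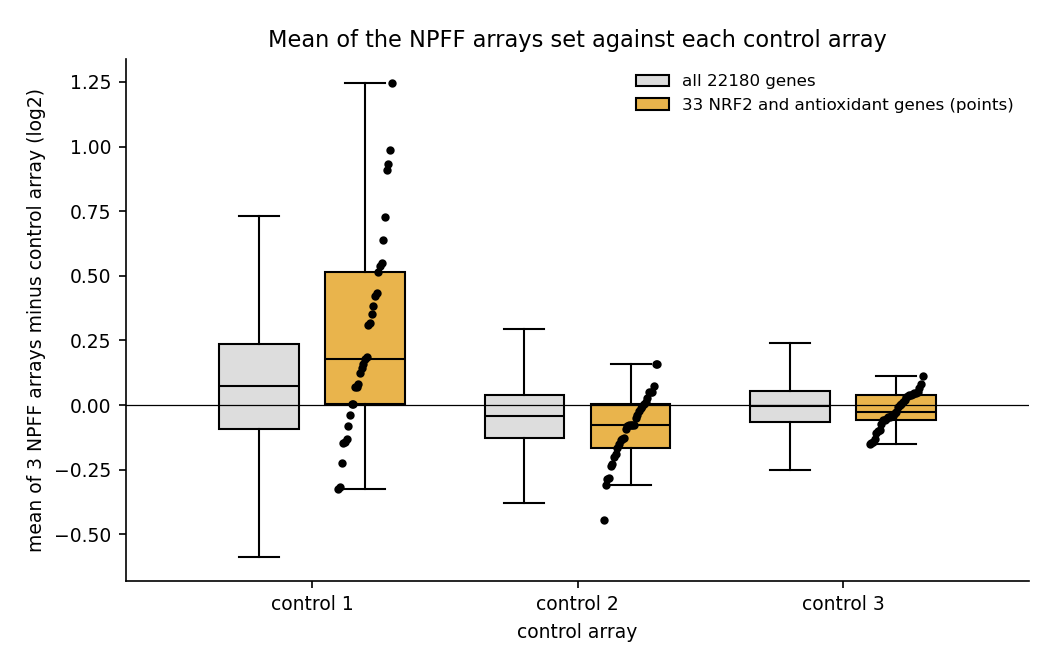
Mean of the 3 NPFF arrays minus each control array, in log2, for all 22180 genes (grey) and for the 33 genes of the list (orange, each gene a point). Boxes span the quartiles, the line is the median, and whiskers reach to the last value within 1.5 box lengths. The list's median is 0.18 against control 1, -0.08 against control 2 and -0.02 against control 3.

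The transcription factor itself did not separate the groups. Nfe2l2 (feature 17386700) stood at 11.03, 10.94 and 10.99 in controls 1 to 3 and at 11.00, 11.01 and 10.96 in NPFF 1 to 3. The values of both groups fell in the same narrow range, with means of 10.99 ± 0.05 and 10.99 ± 0.03 (SD, n = 3 each) and a difference of 0.0053 (SE 0.06, 95% interval -0.14 to 0.15), which was 0.03 without control 1. Keap1 (feature 17524659), the adaptor that marks NRF2 for degradation, read 6.30, 7.29 and 7.29 in controls 1 to 3 and 7.33, 7.30 and 7.08 in NPFF 1 to 3. Control 1 alone was low, and the other five overlapped. Its difference of 0.27 (SE 0.27) turned to -0.05 without control 1, and a second, dimmer Keap1 feature showed the same low control 1, with 6.06 against 6.43 to 6.84 elsewhere.

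Both subunits of glutamate-cysteine ligase, the rate-limiting enzyme of glutathione synthesis, were measured, and they lay on opposite sides of 0. Gclc (feature 17519579), the catalytic subunit, stood at 9.23, 9.84 and 9.72 over controls 1 to 3 and at 9.78, 9.73 and 9.79 over NPFF 1 to 3, a difference of 0.17 (SE 0.16). Gclm (feature 17402283), the modifier subunit, stood at 10.49, 10.32 and 10.22 in controls 1 to 3 and 10.24, 10.09 and 10.18 in NPFF 1 to 3, a difference of -0.18 (SE 0.09). Gclc was low in control 1 and Gclm high there, and in neither gene were the groups apart: the lowest control of Gclm lay just below NPFF 1. Without control 1 the differences were -0.01 and -0.10, and against control 3 alone 0.05 and -0.06.

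Slc7a11 (feature 17405082) imports the cystine from which glutathione is built. Its values were 10.96, 10.90 and 10.67 over controls 1 to 3 and 10.80, 10.54 and 10.86 over NPFF 1 to 3, which overlapped, with a difference of -0.11 (SE 0.12) that was -0.05 without control 1 and 0.06 against control 3. Glutathione synthetase, Gss, which completes the tripeptide, differed by -0.06 (SE 0.12) and by -0.18 (SE 0.07) without control 1; in that fit its groups did not overlap, as in 27.3% of all genes, and its adjusted p by limma was 0.426. Gsr, the reductase that returns oxidized glutathione to its reduced form with NADPH, differed by 0.02 (SE 0.07), and by -0.02 without control 1. Glrx, the glutaredoxin that removes glutathione from protein thiols, was at 8.97 in control 1 and between 9.89 and 10.10 on the other five arrays, so its difference of 0.24 (SE 0.30) became -0.14 without control 1.

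**Figure D3:**
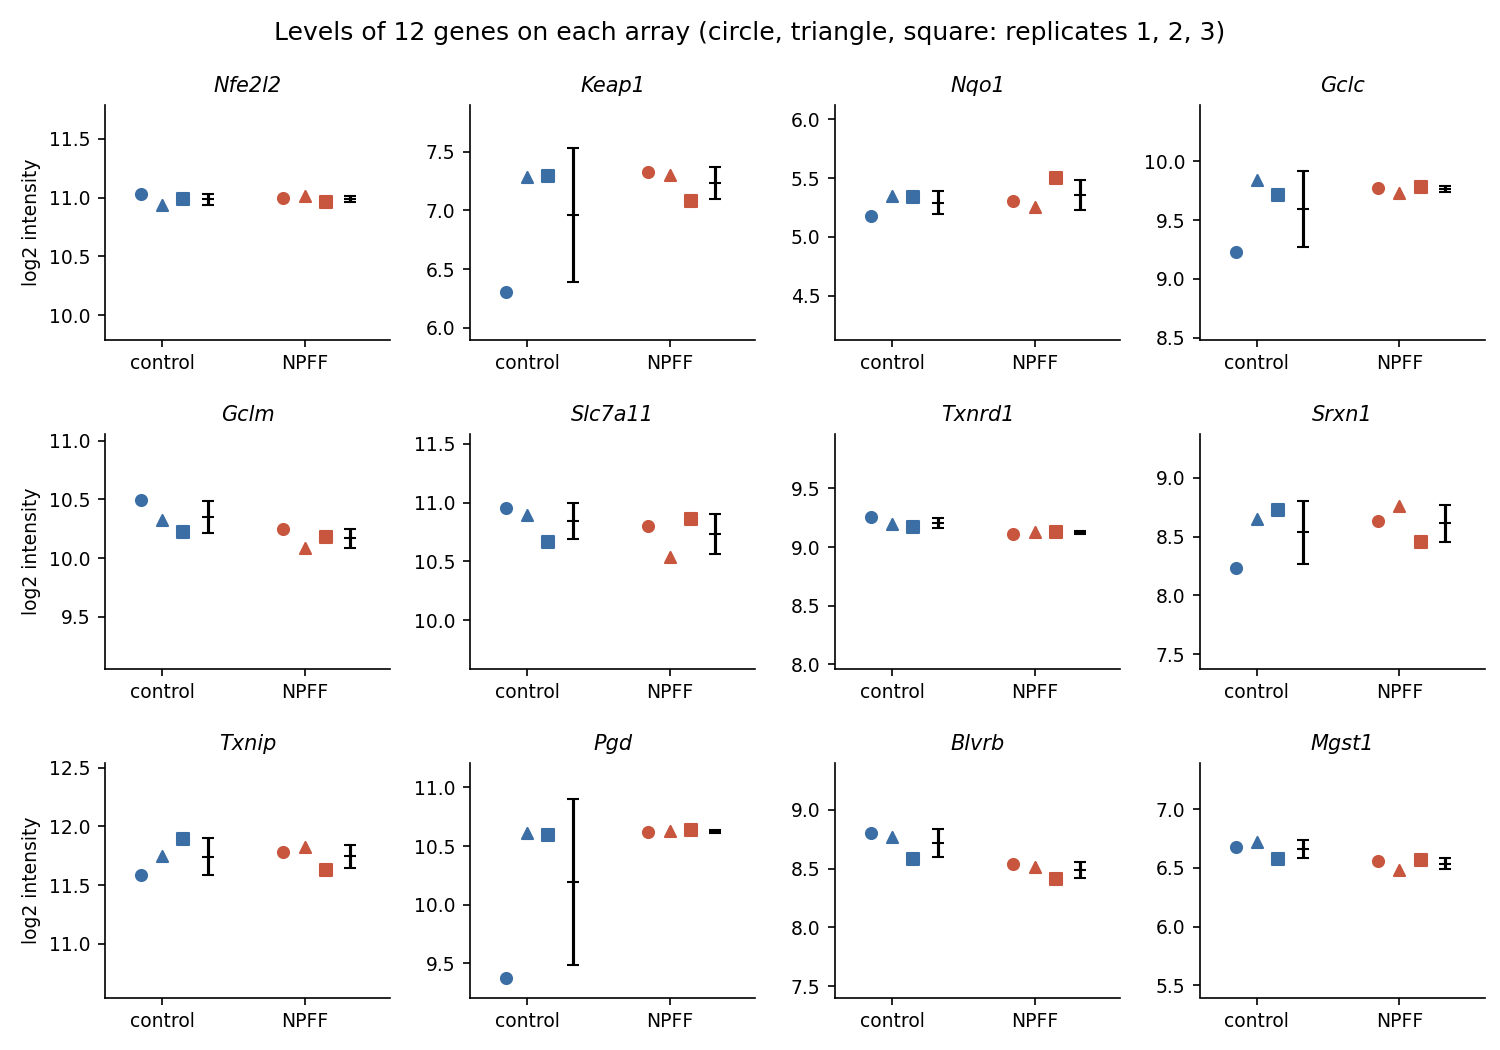
Log2 intensity of 12 genes on each array, with control in blue and NPFF in red; circles, triangles and squares are replicates 1, 2 and 3, and bars give the mean and SD of 3 arrays. Each panel spans 2 log2 units. Nfe2l2 is level across arrays, Keap1, Gclc and Pgd have a low control 1, and Blvrb, Txnrd1 and Mgst1 lie slightly lower on all NPFF arrays.

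In the thioredoxin system, Txnrd1 was among the genes whose groups did not overlap. Txnrd1 (feature 17235915), the cytosolic selenoenzyme that reduces thioredoxin, had 9.25, 9.20 and 9.17 in controls 1 to 3 and 9.11, 9.13 and 9.13 in NPFF 1 to 3. Every NPFF array was below every control, by a difference of -0.09 (SE 0.06), or 0.943-fold; its unadjusted p by limma was 0.192. The difference was -0.06 without control 1 and -0.05 against control 3. Its substrate Txn1, cytosolic thioredoxin, differed by -0.10 (SE 0.07), the mitochondrial thioredoxin Txn2 by 0.01 (SE 0.07) and the mitochondrial reductase Txnrd2 by 0.14 (SE 0.13). Without control 1 these were -0.07, 0.06 and -0.0021.

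Srxn1 (feature 17377666), sulfiredoxin, repairs overoxidized peroxiredoxins and is a well-known NRF2 target. It measured 8.23, 8.65 and 8.72 over controls 1 to 3 and 8.63, 8.76 and 8.45 over NPFF 1 to 3, with control 1 lowest and the groups overlapping; the difference was 0.08 (SE 0.15), and -0.07 without control 1. Txnip (feature 17400599) binds and inhibits thioredoxin and follows glucose supply. It read 11.58, 11.75 and 11.89 in controls 1 to 3 and 11.78, 11.82 and 11.63 in NPFF 1 to 3. The controls spanned a wider range than the NPFF arrays and enclosed them, and the difference was 0.0016 (SE 0.10), -0.08 without control 1 and -0.15 against control 3.

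The 3 measured peroxiredoxins, which are thiol peroxidases, were each higher in NPFF on average, and none passed the test. Prdx3, the mitochondrial form, differed by 0.28 (SE 0.19), Prdx2 by 0.17 (SE 0.15) and Prdx4, of the endoplasmic reticulum, by 0.01 (SE 0.11). Control 1 was the lowest array for Prdx2 and Prdx3. Without it the differences were 0.06, -0.0023 and -0.04, whereas without control 3 that of Prdx3 was 0.44 (SE 0.17), with an adjusted p of 0.936 by limma.

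Among the other scavenging enzymes no difference exceeded 2 SE with all 6 arrays. Sod1, cytosolic superoxide dismutase, differed by 0.04 (SE 0.07), and the mitochondrial Sod2 by 0.08 (SE 0.11), which were 0.02 and -0.04 without control 1. Catalase, Cat, was at 11.78 in control 2 and between 11.27 and 11.38 on the other five arrays, with a difference of -0.14 (SE 0.14). It depended on the controls used: it was 0.01 without control 2, -0.24 (SE 0.11) without control 1 and -0.04 against control 3. Gpx4, the glutathione peroxidase that repairs lipid peroxides in membranes, stood at 7.39, 7.65 and 7.77 over controls 1 to 3 and 7.78, 7.94 and 7.72 over NPFF 1 to 3. It was higher against each control, with a difference of 0.21 (SE 0.12), but NPFF 3 lay below control 3, and without control 1 the difference was 0.10. Gpx1, the abundant cytosolic glutathione peroxidase, differed by -0.03 (SE 0.07) and Gpx7 by 0.03 (SE 0.10), or -0.05 and -0.03 without control 1.

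The detoxifying enzymes held the single gene that reached an unadjusted p under 0.05. Blvrb (feature 17475580), a flavin reductase that also reduces biliverdin, had 8.80, 8.77 and 8.58 in controls 1 to 3 and 8.54, 8.51 and 8.41 in NPFF 1 to 3. All NPFF arrays were below all controls, though NPFF 1 was close to control 3. The means were 8.72 ± 0.12 and 8.49 ± 0.07 (SD, n = 3 each), a difference of -0.23 (SE 0.08), or 0.852-fold. Its unadjusted p by limma was 0.0285 and its adjusted p was 1.00. After median centring in place of quantile normalization the unadjusted p was 0.0887. With single arrays left out the difference ranged from -0.30 to -0.19, and against control 3 it was -0.10. Microsomal glutathione transferase 1, Mgst1 (feature 17463909), also had no overlap, with 6.68, 6.72 and 6.57 over controls 1 to 3 and 6.56, 6.48 and 6.56 over NPFF 1 to 3. Control 3 was only just above the NPFF arrays, and the difference was -0.12 (SE 0.07), also -0.12 without control 1 and -0.04 against control 3.

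Nqo1 (feature 17512732), a quinone reductase often used as a readout of NRF2, was dim, at the 12.4th percentile of mean signal of all genes. It measured 5.18, 5.35 and 5.34 in controls 1 to 3 and 5.31, 5.26 and 5.50 in NPFF 1 to 3, with overlap and a difference of 0.07 (SE 0.09), or 0.0094 without control 1. Near the lowest signals of the arrays, such a difference says little about the transcript. The glutathione transferases Gstm1 and Gsto1 differed by 0.03 (SE 0.07) and 0.10 (SE 0.11), and without control 1 by 0.04 and -0.0042. Gstp1 was at 8.94 in control 1, 10.16 in control 2 and between 9.78 and 9.89 on the other four, and its difference of 0.19 (SE 0.29) was -0.17 without control 1. Mgst3 differed by 0.06 (SE 0.21) and the conjugate exporter Abcc1 by 0.06 (SE 0.14), and both were negative without control 1, at -0.18 and -0.08.

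Pgd had the largest difference of the 33 genes, and it was a difference from control 1. Pgd (feature 17433040) encodes 6-phosphogluconate dehydrogenase, which makes NADPH in the oxidative branch of the pentose phosphate pathway. It stood at 9.38, 10.61 and 10.59 over controls 1 to 3 and at 10.62, 10.63 and 10.64 over NPFF 1 to 3. The NPFF arrays were above all controls, but NPFF 1, at 10.6155, was almost level with control 2, at 10.6147. The NPFF mean exceeded controls 2 and 3 by 0.01 and 0.03, as against 1.25 over control 1. The difference was 0.43 (SE 0.32), or 1.35-fold, with an unadjusted p = 0.230 by limma, and 0.02 (SE 0.05) without control 1. Taldo1, transaldolase of the non-oxidative branch, was likewise lowest in control 1, at 7.94 against 8.52 to 8.81 elsewhere; its difference of 0.10 (SE 0.22) became -0.17 (SE 0.07) without that array, with an adjusted p of 0.448 by limma.

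**Figure D4:**
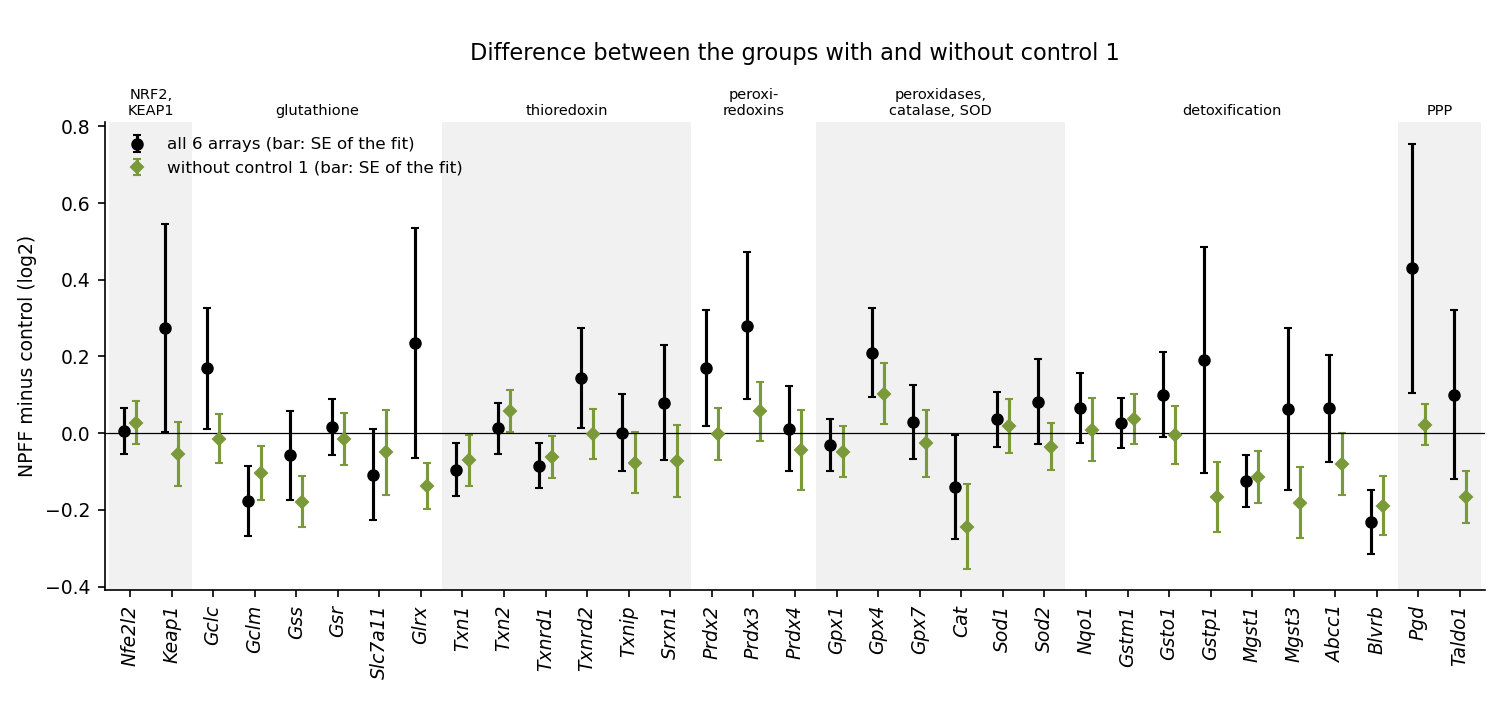
NPFF minus control in log2 for each of the 33 genes, from all 6 arrays (black) and without control 1 (green); bars are the SE of the limma fit. Pgd goes from 0.43 to 0.02, Keap1 from 0.27 to -0.05 and Glrx from 0.24 to -0.14, whereas Blvrb, Mgst1 and Txnrd1 stay below 0 at -0.19, -0.12 and -0.06.

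The low readings of control 1 concerned some of these genes and not others. Control 1 lay more than 0.5 log2 below the NPFF mean in 9 of the 33 genes, or 27.3%, against 9% of all genes. These were Keap1, Gclc, Glrx, Prdx2, Prdx3, Gstp1, Mgst3, Pgd and Taldo1. The genes of the list were bright, with 24 above the 75th percentile of mean signal, and above that percentile the share of all genes so low in control 1 was 17.4%, against 7 of those 24 genes. In contrast, control 1 was the highest array for Nfe2l2, Gclm, Slc7a11, Txn1, Txn2, Txnrd1 and Blvrb. A second, much dimmer Slc7a11 feature went the other way, with 5.04 in control 1 against 5.32 to 5.73 elsewhere. None of the 33 departed by more than 0.5 from the NPFF mean in control 2 or control 3.

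Genes with the NRF2 core in their promoter window were set beside those without it. The 7 genes with a printed site had a median difference of 0.0053, from -0.18 for Gclm to 0.43 for Pgd, with 4 higher in NPFF. The 23 with a window and no match had a median of 0.06, from -0.23 to 0.28, with 17 higher. Against control 3 the medians were -0.04 and -0.03. The ranges of both sets overlapped. Sequence outside these short windows was not searched, so a gene without a match may still carry the core elsewhere. Nqo1, often used as a readout of NRF2, was in the set without a match, and Gclc had no window. The sets therefore do not separate genes controlled by NRF2 from others, and such control was not tested.

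The rest of the pathway was followed in a list also chosen by function, with earlier results of these data known. Of its 81 measured genes (NRF2 partners and regulators, further targets, antioxidant enzymes, and NADPH and glutathione genes), 0 passed limma after adjustment, 2 reached an unadjusted p under 0.05, both of them lower, against 2.51% of all genes, and 7 had groups that did not overlap, against 8.58%. Both counts are near the share of all genes. Without control 1 there were 12 at the unadjusted level, all of them lower in NPFF, where 10.8% of all genes were. Over all genes, 1600 of the 2397 at that level were lower, and 39.1% of all genes were higher in that fit. In all, 49 of the 81 were higher in NPFF, with a median difference of 0.05, and without control 1 there were 23 with a median of -0.04. The 2 genes with all arrays were Ephx1, microsomal epoxide hydrolase, with a difference of -0.23 (SE 0.07), and Me1, the NADPH-making malic enzyme, with one of -0.24 (SE 0.10). Ephx1 read 8.86, 8.80 and 8.93 in controls 1 to 3 and 8.54, 8.70 and 8.66 in NPFF 1 to 3. Without control 1 the differences were -0.23 (SE 0.07) and -0.15 (SE 0.07), the latter no longer at the unadjusted level.

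Bach1, which represses NRF2 targets by competing for the same elements, stood at 8.65, 8.81 and 8.72 over controls 1 to 3 and 8.45, 8.64 and 8.63 over NPFF 1 to 3. Its groups did not overlap, although control 1 and NPFF 2 were nearly equal, and the difference was -0.15 (SE 0.08), or -0.19 (SE 0.08) without control 1. Hmox1, heme oxygenase 1, a target of both factors, read 8.97, 9.53 and 9.52 in controls 1 to 3 and 9.20, 9.26 and 9.19 in NPFF 1 to 3. The NPFF arrays fell between control 1 and the other controls, so the difference of -0.12 (SE 0.16) was 0.25 against control 1 and -0.30 against control 3. Without control 1 it was -0.30 (SE 0.06), with an adjusted p of 0.332 by limma. The small MAF protein Mafg differed by -0.04 (SE 0.13), or -0.13 without control 1.

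Of the further genes with the smallest p-values, Gsta3, a glutathione transferase, differed by 0.19 (SE 0.09) and Selenot, a selenoprotein of the endoplasmic reticulum, by 0.19 (SE 0.11). Idh1, the cytosolic isocitrate dehydrogenase that makes NADPH, differed by 0.28 (SE 0.14). The NRF2 relative Nfe2l1 differed by 0.35 (SE 0.21) and Park7, a redox-sensitive protein, by 0.42 (SE 0.28). Without control 1 these 5 differences were 0.13, 0.08, 0.12, 0.09 and 0.12. Against control 3 alone they were 0.16, -0.0026, 0.12, 0.10 and -0.06.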

How the data were processed

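Total RNA of 6 cultures, grouped by the sample titles, was measured on Affymetrix whole-transcript arrays with biotin labelling, per the labels. The authors deposited 1 log2 intensity per feature (4.59 to 14.0; the log base is read from that range). Their software, normalization and genome build: not given in the sources used here. Of 33794 features, 23521 carried 1 symbol in the platform table. Because sorted arrays departed from their mean by up to 0.17, all features were quantile-normalized, and each gene kept its brightest feature. limma (version 3.58.1, R 4.3.3; lmFit, eBayes, 4 residual degrees of freedom) compared the groups, two-sided; p-values were adjusted by Benjamini-Hochberg over 22180 genes, and SE is that of the fit. Arrays carry no counting depth; their number limits the precision. Scripts were tested on simulated data. Values on all arrays are given for Nfe2l2, Keap1, Nqo1, Gclc, Gclm, Slc7a11, Txnrd1, Srxn1, Txnip and members with no overlap or an unadjusted p under 0.05; Gpx4 was added after its values were seen. Further pathway genes were named by p, up to 8, plus Hmox1, Me1, Bach1 and Mafg. Members and lists were chosen with earlier results of these data known. Other normalizations, filters and models, and leaving out arrays, were tried.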

Additional observations from a re-analysis of the deposited data

How the results depend on the processing

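No member, further pathway gene or other gene passed the adjusted threshold by limma under any of the 15 other settings, with 235 to 2397 genes at an unadjusted p under 0.05 against 556. The count of members at that unadjusted level was 1 (against 2.51% of all genes), and 2 with the values as deposited, Blvrb and Gclm (2.25%). After median centring it was 1, Gclm and no longer Blvrb (1.67%), and with array weights it was 0 (8.40%). With single arrays left out it was 0 to 3 (1.06% to 10.8%). Against control 3 alone, where the lone control is assumed to vary like the other arrays, the median difference over the members was -0.02. Members with no overlap numbered 4 (against 8.58% of all genes at that setting), 2 with the values as deposited (7.43%), 13 against control 3 alone (49.6%) and 5 to 9 with single arrays left out (13.6% to 27.3%). Of the 33 members, 24 were higher in NPFF, and so they were as deposited and after median centring, but 20 were after cyclic loess, 14 with array weights and 8 without control 1. Leaving out 1 array turned the sign or moved the difference by over 1.5 times in 29 members; the exceptions were Blvrb, Mgst1, Txn1 and Txnrd1. Same-numbered arrays did not all deviate together: their correlations were 0.23, 0.45 and -0.33, against -0.50 to 0.41 for arrays of different number. With the replicate number as a block 1 member, Blvrb, reached the unadjusted level, with 396 genes in all (1.79%). Dim features such as that of Nqo1 limit what can be read from small differences.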

Other observations

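Features shared between a member and another gene were left out of every comparison. The brightest feature for Prdx1, a cytosolic peroxiredoxin, also carries the symbol Gm21399; it stood at 11.65, 11.86 and 11.87 over controls 1 to 3 and 11.72, 11.85 and 11.73 over NPFF 1 to 3, a difference of -0.03. The feature of transketolase, Tkt, which also carries Mir3076, stood at 8.52, 9.20 and 9.16 in controls 1 to 3 and 9.12, 9.12 and 9.10 in NPFF 1 to 3. It differed by 0.15, with control 1 again the low array. A feature shared by Gstp1 and Gstp2 was lowest in control 1 too, at 7.94 against 8.39 to 8.77 on the other arrays.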
